A study of Drosophila melanogaster with 8 samples.

Results

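Cells of an epithelium such as the Drosophila wing disc hold together and keep an apical and a basal side through a small set of junction and polarity proteins. Adherens junctions join neighbouring cells through E-cadherin and beta-catenin, septate junctions seal the space between them further down, and 2 opposed groups of membrane-associated proteins mark the apical and the basolateral side. Zelda is a DNA-binding protein known in the fly embryo as a pioneer factor, which binds closed chromatin and makes it accessible. The 8 genes described here cover these roles: shg (E-cadherin), arm (beta-catenin), ed (Echinoid, an immunoglobulin-type adhesion protein of adherens junctions), Fas3 (Fasciclin 3, an adhesion protein found at septate junctions), crb (Crumbs, the apical determinant), and dlg1, scrib and l(2)gl, whose products Discs large, Scribble and Lethal giant larvae act together at the basolateral side and are classical tumour suppressors of imaginal discs.

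Wing discs were profiled by CUT&RUN. In this assay a nuclease is directed by an antibody to its target on chromatin, where it cuts, and the DNA that is set free is sequenced. The antibody was against GFP throughout. Larvae carried Zelda tagged with GFP at its own locus (Zelda-GFP), or were untagged w1118 animals (wild type) that served as the control for the antibody. Discs of each genotype came from larvae 2 days after wing damage (damaged) or from larvae in normal development (undamaged), with 2 libraries for each of the 4 combinations. The labels used here give neither the method of damage nor the number of discs or animals per library, and do not say whether replicates came from separate cultures. They also do not give the genetic background of the tagged larvae, so that any difference in background cannot be told apart from the tag. Peak lists carry no expression values, so the labelled tissue could not be checked against its marker genes.

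The authors called peaks in each library separately and deposited 1 list per library. On the 6 main chromosome arms, overlapping peaks of the 8 lists (by 1 bp or more) were merged into 9086 regions. A library was said to call a region when at least 1 of its own peaks lay in it. A region belonged to a gene if it overlapped the gene's span in the Release 6 annotation (dm6) extended by 2 kb on each side. By this rule the 8 genes, of 13922 protein-coding genes on these arms, held 17 of the 9086 regions. The genes were chosen with calls of these same lists known, so their counts describe the lists and support no claim about the genes as a group. The lists held 2663 to 4946 peaks, and background coverage, a stand-in for depth recovered from the authors' fold and p-value, ranged from 32.6 to 52.3 fragments per base. In 3 libraries the calls were more like those of another group than those of their own replicate. For Zelda-GFP undamaged replicate 2 the Jaccard index, the regions called by both libraries over those called by either, was 0.443 against the other Zelda-GFP undamaged library, and 0.452 against wild type undamaged replicate 1. Wild type damaged replicate 1 and wild type undamaged replicate 1 had an index of 0.457 with each other, and of 0.327 and 0.312 with their own replicates.

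Calls at the junction and polarity genes were concentrated in the damaged Zelda-GFP discs. Of the 17 regions, 12 were called in Zelda-GFP damaged replicate 1 and 12 in replicate 2, against 3 and 1 in Zelda-GFP undamaged replicates 1 and 2. Wild type damaged replicates 1 and 2 called 1 and 3 of them, and wild type undamaged replicates 1 and 2 called 1 and 6. Both damaged Zelda-GFP libraries thus lay above all 6 other libraries. Over all 9086 regions the shares called were 37.0% and 39.2% in the damaged Zelda-GFP libraries, 29.3% and 15.8% in the undamaged Zelda-GFP libraries, 22.8% and 37.9% in the wild type damaged libraries, and 16.5% and 33.1% in the wild type undamaged libraries. At the 8 genes the corresponding shares were 70.6% and 70.6%, then 17.6% and 5.88%, then 5.88% and 17.6%, and last 5.88% and 35.3%. No test was made on these counts, since the genes were chosen on the calls, and 2 against 2 libraries could not give an exact two-sided p below 0.333 in any case.

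**Figure D1:**
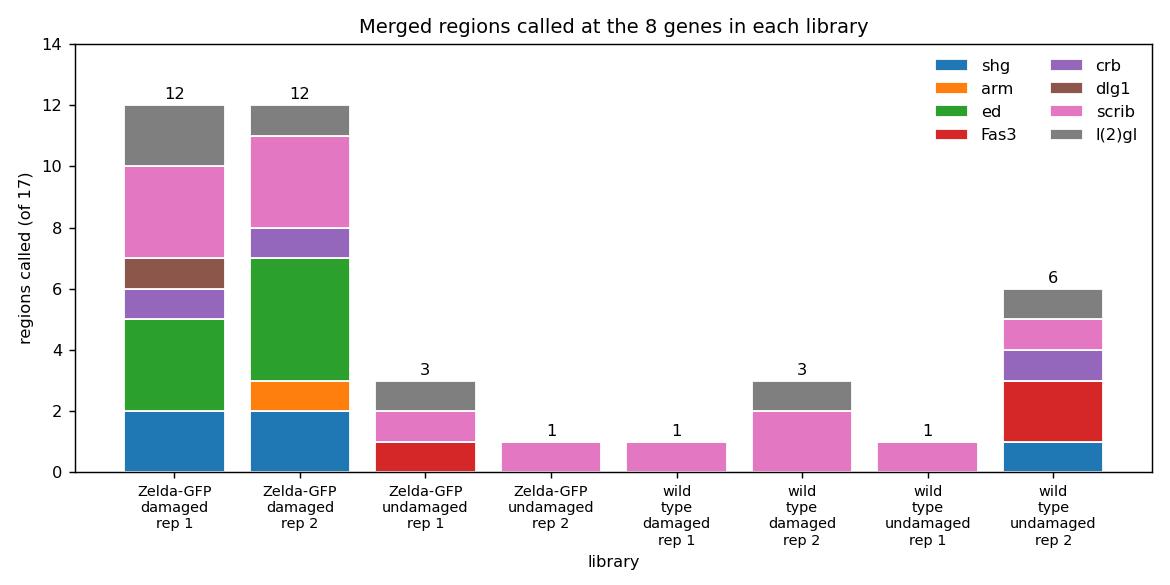
Number of the 17 merged regions called in each of the 8 libraries, stacked by gene; bars start at 0 and each library is a bar of its own, with no error bars. Both Zelda-GFP damaged libraries reach 12, and the other 6 lie between 1 and 6, where wild type undamaged replicate 2 is the highest.

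A region was termed tag-dependent, for damaged or for undamaged discs, when both tagged libraries called it and neither untagged library of the same condition did. In damaged discs 7 of the 17 regions met this rule (41.2%), where 13.4% of all regions did. They lay at ed (3 regions), shg (2), crb (1) and scrib (1), so 4 of the 8 genes carried such a region and arm, Fas3, dlg1 and l(2)gl did not. The count was 4 of 13 regions when only the gene spans were used with no flank, where shg had 1 and scrib 0. With lists cut to equal length it was 4 of 11, where ed had 1 and crb 0. Of the 3 libraries that resembled another group, only wild type damaged replicate 1 enters this rule. Leaving it out loosens the rule, and the count stayed 7, while 14.9% of all regions then met it. Among all protein-coding genes 9.80% carried one within the same window, and among the 2309 genes whose span lay between those of the shortest and the longest of the 8 genes the share was 22.5%. The opposite pattern, both wild type damaged and neither Zelda-GFP damaged library, was met by 0 of the 17 regions, against 3.04% of all regions. In undamaged discs 0 of the 17 regions were tag-dependent, against 3.02% of all regions, and 0 had the opposite pattern, against 1.96%. A library without a call gives no value at a region. The lowest pileup called at background coverage was 1.45 to 1.62 times the background, depending on the list, and weaker signals would not appear. Folds of different lists are not on a shared scale, so each is given with its library and, where it matters, its percentile among the peaks of its own list.

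**Figure D2:**
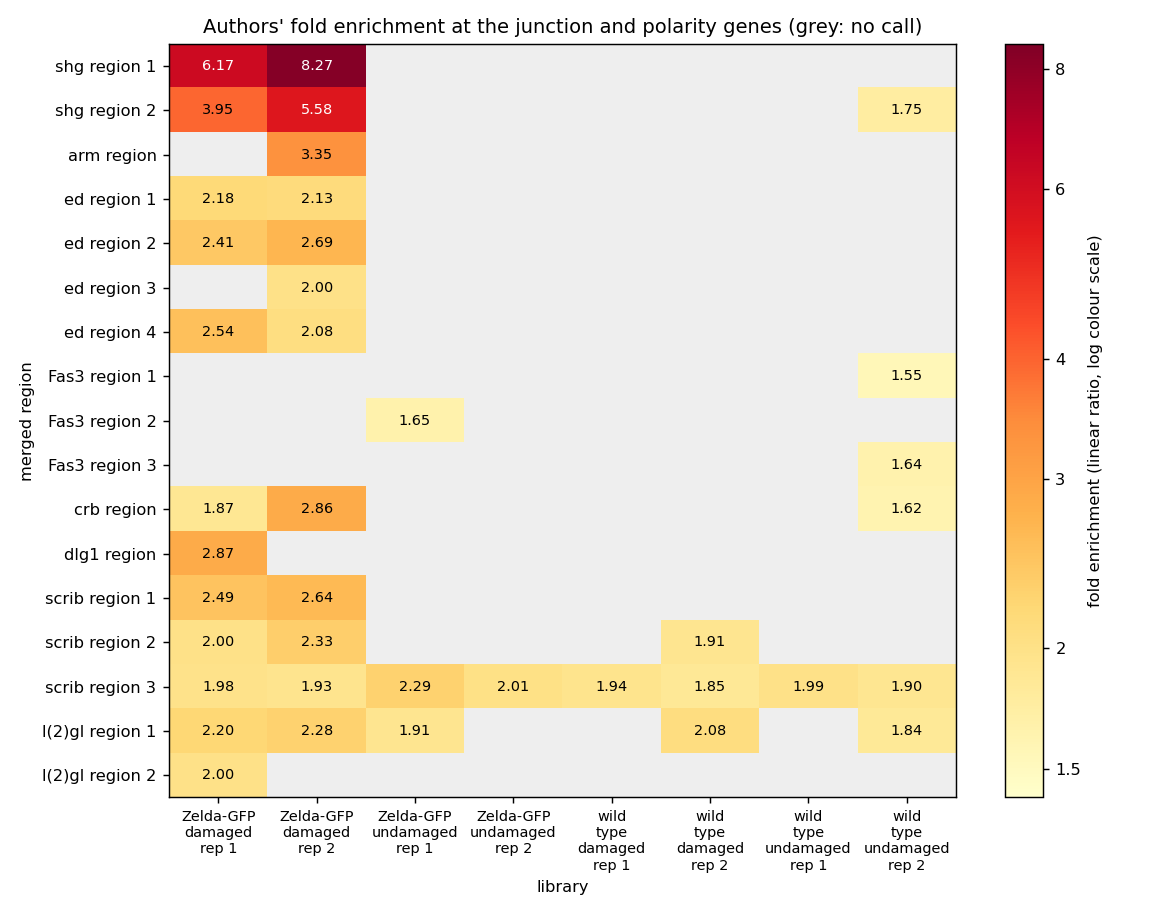
Authors' fold enrichment (linear ratio at the summit, the highest peak where a library had several) for the 17 merged regions, in rows, and the 8 libraries, in columns; grey cells had no call. Regions are numbered from the lower coordinate within each gene. The 2 shg regions have the highest folds, 8.27 and 6.17 at region 1, and only scrib region 3 is coloured in every column.

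The strongest signal among the 8 genes was at shg, which encodes E-cadherin, the transmembrane protein whose extracellular parts bind between neighbouring cells. Its span (2R, 21049654 to 21057197) held or neighboured 2 regions. The first, at 2R, 21047901 to 21048657, overlapped no annotated gene and ended 997 bp from the shg span. It was called in both damaged Zelda-GFP libraries, with folds of 6.17 in replicate 1 and 8.27 in replicate 2, and in no other library. These folds ranked 26 of 3624 and 10 of 3908 peaks within their lists. The summit pileup was 6.68 and 10.04 times the background coverage. Both summits fell at almost the same base, 1 bp apart, whereas the median distance over all 2055 regions with 1 peak in each damaged Zelda-GFP list was 56 bp.

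The second shg region, at 2R, 21056319 to 21057520, covered the other end of the gene's span and ran 323 bp past it. Of the annotated genes it overlapped shg alone, and it stood 267 bp from the span of cpa, the next gene. The folds were 3.95 and 5.58 in damaged Zelda-GFP replicates 1 and 2, which ranked 188 and 50 in their lists, and the summits lay 29 bp apart. Wild type undamaged replicate 2 also had a peak here, with a fold of 1.75 at percentile 38.4 of its list. That peak's summit lay 449 and 420 bp from the 2 damaged Zelda-GFP summits. No call was made in the Zelda-GFP undamaged or the wild type damaged libraries.

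The partner of E-cadherin inside the cell is beta-catenin, the product of arm, which also carries the Wingless signal. At arm (X, 1891401 to 1900646) the only region, X, 1899107 to 1900597, was called in Zelda-GFP damaged replicate 2, with a fold of 3.35 at percentile 90.0 of its list, and in no other library. Damaged replicate 1 had no call within the window. By this percentile the arm region was the highest of the 7 regions that rested on 1 library. Such regions made up 41.2% of the 17 and 53.1% of all regions.

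At ed, whose product joins cells by binding itself or related proteins on the neighbour, all calls came from damaged Zelda-GFP discs. The gene is the longest of the 8, with a span of 84.4 kb (2L, 4031377 to 4115749). Its 4 regions fell at the lower-coordinate end and in the body. The first, 2L, 4030544 to 4031006, lay 371 bp outside the span and had folds of 2.18 and 2.13 in replicates 1 and 2. The second, 2L, 4031402 to 4031825, began 25 bp inside the span, with folds of 2.41 and 2.69. These 2 neighbours were separate peaks in both lists. A region about 38.2 kb into the gene, 2L, 4069148 to 4069954, had folds of 2.54 and 2.08. The summit distances between replicates at these 3 regions were 15, 52 and 16 bp. The remaining region, 2L, 4053915 to 4054249, was called in replicate 2 alone, with a fold of 2.00. Within their lists the folds at the 3 regions called in both replicates stood between percentile 47.1 and percentile 76.8.

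Fas3, the septate junction member, was the gene with no call in either damaged Zelda-GFP library. Its 73.3 kb span (2L, 18320102 to 18393441) held 3 regions, each called in 1 library. Zelda-GFP undamaged replicate 1 had a peak at 2L, 18373643 to 18373921, with a fold of 1.65. Wild type undamaged replicate 2 had peaks at 2L, 18340687 to 18340872 and 18381688 to 18381892, with folds of 1.55 and 1.64. All 3 stood at percentile 25.8 or lower in their lists, and their widths of 186 to 279 bp were the narrowest of the 17 regions.

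Crumbs, the product of crb, organises the apical membrane above the adherens junction. The crb region (3R, 24295174 to 24296184) began 96 bp inside the lower-coordinate end of the gene (3R, 24295078 to 24314541). It was called with folds of 1.87 and 2.86 in damaged Zelda-GFP replicates 1 and 2, at percentiles 28.8 and 80.9, so the replicates differed in how the peak ranked. Wild type undamaged replicate 2 had a peak of fold 1.62, whose summit lay 362 and 440 bp from the damaged Zelda-GFP summits. The tag-dependent call at crb was lost when peaks needed a fold of at least 2, because replicate 1 fell below it.

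**Figure D3:**
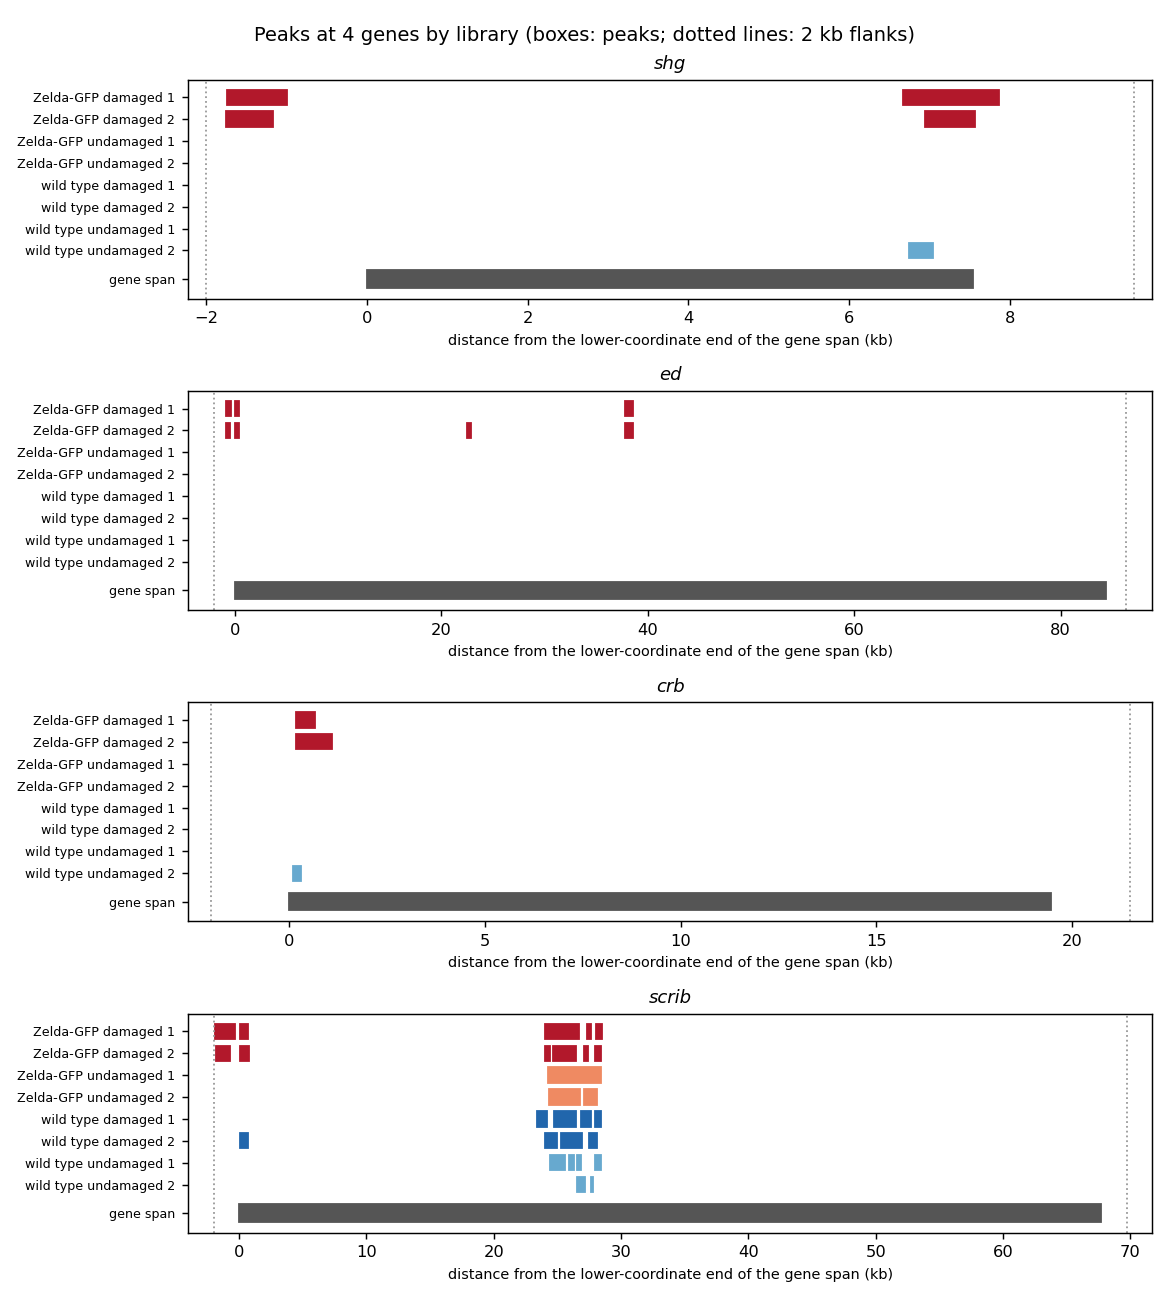
Peaks of each library along shg, ed, crb and scrib, as distance in kb from the lower-coordinate end of the gene span; boxes are peaks, the dark bar is the span (drawn without regard to strand) and dotted lines mark the 2 kb flanks. At shg, ed and crb the boxes lie in the upper rows for damaged Zelda-GFP discs, with wild type undamaged replicate 2 adding 1 box at shg and 1 at crb, while the block about 26 kb into scrib appears in all 8 rows.

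Of the basolateral genes, scrib showed both a tag-dependent region and the most widely shared one. At the lower-coordinate end of its span (3R, 26536350 to 26604051) were 2 regions. The first, 3R, 26534459 to 26536036, ended 314 bp outside scrib and overlapped the neighbouring gene plum, so it cannot be given to scrib alone. It was called in both damaged Zelda-GFP libraries and no other, with folds of 2.49 and 2.64, but the summits of the replicates were 891 bp apart, the widest distance among the 9 member regions with 1 peak in each damaged Zelda-GFP list. The second, 3R, 26536395 to 26537112, began 45 bp inside scrib. It had folds of 2.00 and 2.33 in damaged Zelda-GFP replicates 1 and 2, and of 1.91 in wild type damaged replicate 2. Within their lists these stood at percentiles 42.2, 63.6 and 59.4, so the wild type peak ranked between the 2 Zelda-GFP ones. The wild type summit lay 17 bp from the summit of Zelda-GFP replicate 1. The region was therefore not tag-dependent by the rule.

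The third scrib region, 3R, 26559734 to 26564812, spanned 5079 bp about 26 kb into the gene and was called in all 8 libraries. Each list held 1 to 4 peaks there, covering 764 to 4190 bp, and the shortest cover was in wild type undamaged replicate 2. The highest fold per library was 1.98 and 1.93 in damaged and 2.29 and 2.01 in undamaged Zelda-GFP discs, against 1.94 and 1.85 in damaged and 1.99 and 1.90 in undamaged wild type discs. In damaged discs the groups overlapped, both in fold and in the highest pileup over background, which was 2.74 and 2.23 in Zelda-GFP libraries against 2.77 and 2.39 in wild type ones. In undamaged discs they did not overlap in fold or pileup, with pileups of 2.70 and 2.69 in Zelda-GFP libraries against 2.42 and 2.08 in wild type ones. The percentiles of the highest folds within their own lists ran otherwise. In undamaged discs they overlapped, at 81.7 and 48.9 in Zelda-GFP libraries against 43.1 and 59.0 in wild type ones. In damaged discs both wild type libraries stood higher, at 63.0 and 49.6 against 40.7 and 35.5. This region thus gave no steady difference by tag. At scrib 1 region became tag-dependent in undamaged discs when peaks needed a fold of at least 2, or had to cover 50% of the region. The caller's expected coverage at these peaks was also raised, at 1.08 to 1.43 times the background of the library.

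Scribble acts with the products of l(2)gl and dlg1, and neither of these genes had a tag-dependent region. At l(2)gl (2L, 9839 to 21376) the region at 2L, 18146 to 18850 was called in 5 libraries. The folds were 2.20 and 2.28 in damaged Zelda-GFP replicates 1 and 2 and 1.91 in undamaged Zelda-GFP replicate 1, against 2.08 in wild type damaged replicate 2 and 1.84 in wild type undamaged replicate 2. Within their lists these folds stood, in the same order, at percentiles 57.7, 61.3, 58.8, 75.8 and 50.7. The peak of wild type damaged replicate 2 thus ranked highest. Summits of the 3 libraries other than the damaged Zelda-GFP pair lay between 5 and 129 bp from those of that pair. A second region, 2L, 20293 to 20591, was called in damaged Zelda-GFP replicate 1 alone, with a fold of 2.00. At dlg1 (X, 11369665 to 11409776) the only region, X, 11368186 to 11368643, lay 1022 bp outside the span and overlapped Tim8, a neighbouring gene. It had a fold of 2.87 in damaged Zelda-GFP replicate 1 and no call elsewhere. No peak of any list fell inside the 40.1 kb of dlg1 itself.

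**Figure D4:**
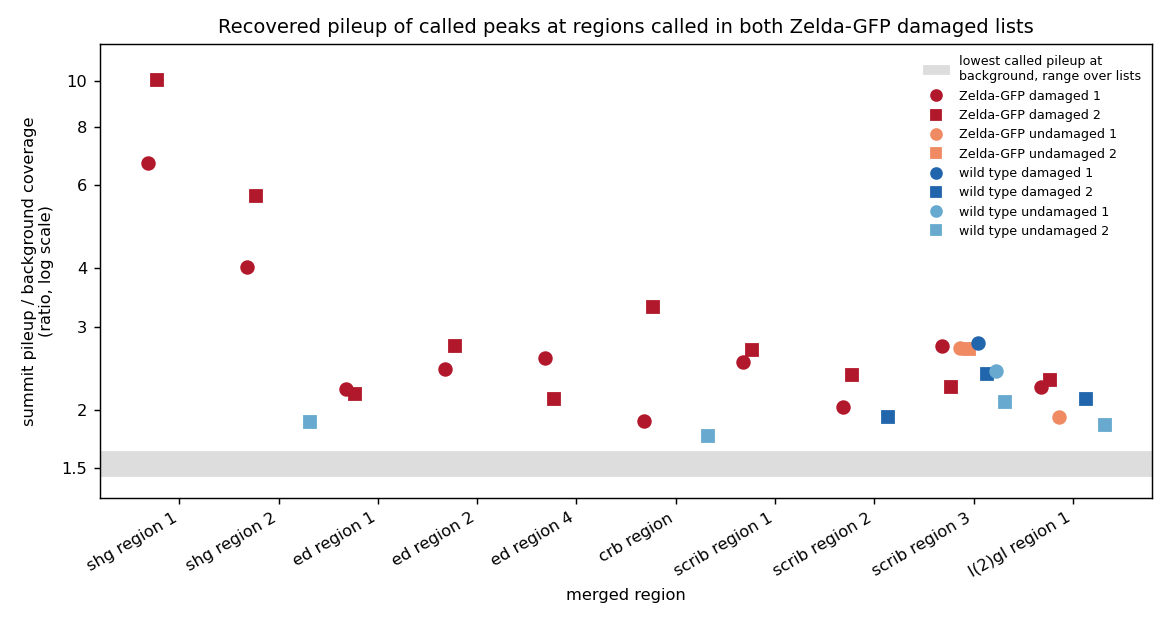
Summit pileup over the library's background coverage (ratio, log axis) for every called peak at the 10 regions called in both damaged Zelda-GFP libraries, the highest where a library had several; circles are replicate 1 and squares replicate 2, and the grey band is the range over lists of the lowest pileup called at background coverage. The 2 shg regions stand highest, at 6.68 and 10.04 and at 4.02 and 5.71 times background, and at scrib region 3 the 8 libraries lie between 2.08 and 2.77.

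The regeneration contrast within Zelda-GFP discs asked which regions the 2 damaged libraries called and the 2 undamaged ones did not, leaving out any region with a call in wild type discs. It uses the same damaged Zelda-GFP libraries as the tag contrast, so the 2 counts are not independent. Of the 17 regions 5 met this rule (29.4%), at ed (3), shg (1) and scrib (1), where 10.6% of all regions did. The opposite direction, both undamaged and no other library, was met by 0 of 17, against 0.616% of all regions. Regions at shg and crb dropped out through calls in wild type undamaged replicate 2 alone, and without that library the count was 7. Leaving it out loosens the rule for all regions. The share of all regions is not given for that setting, so the 10.6% does not apply to it. With no flank it was 2, both at ed. With no regard to calls in the other genotype, 8 of the 17 regions were called in the damaged and not in the undamaged Zelda-GFP pair (47.1%), against 13.7% of all regions, and 0 in the opposite direction, against 1.62%. The like counts in wild type discs were 0 of the 17 regions towards damage, against 2.85% of all regions, and 0 in the opposite direction, against 1.21%.

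The tag-dependent regions of damaged discs had 5 of 7 members within 500 bp of an end of a protein-coding gene (71.4%), while 43.9% of all 1222 such regions were. The 2 others were shg region 1, in intergenic sequence, and ed region 4, in the body of the gene. These shares are not on equal terms. The 7 regions had to lie within 2 kb of a gene span, and the 1222 did not. Regions 1 and 2 of ed also lay at the same gene end. The median width of the 7 regions was 807 bp, against 793.5 bp for all tag-dependent regions. Median fold was 2.49 and 2.69 in damaged Zelda-GFP replicates 1 and 2, against 2.38 and 2.50 over all tag-dependent regions.

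The flank of 2 kb decided membership for 4 of the 17 regions, which lay outside the gene spans. The farthest inside the limit were the dlg1 region at 1022 bp and shg region 1 at 997 bp. The nearest left out was at 2R, 21047218 to 21047487, 2167 bp from shg, called in wild type undamaged replicate 2 alone. Taking only the nearest left-out region of each gene, the next were 3653 bp from crb and 4828 bp from l(2)gl. The former was called in both damaged Zelda-GFP libraries and wild type damaged replicate 2, the latter in 7 libraries at the tip of 2L. With a flank of 5 kb the regions numbered 21, so those named are not all that lay within that distance.

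A list of 31 other genes of the same structures, drawn from textbook roles, was read in the same way. This list, too, was made with earlier results of these data known, so its counts give no independent support. These genes held 59 regions, of which damaged Zelda-GFP replicates 1 and 2 each called 31 and undamaged ones 8 and 4, against 8 and 18 in wild type damaged and 4 and 14 in wild type undamaged libraries. Over all 9086 regions the Zelda-GFP libraries called 37.0% and 39.2% (damaged) and 29.3% and 15.8% (undamaged). The wild type libraries called 22.8% and 37.9% (damaged) and 16.5% and 33.1% (undamaged). A tag-dependent region was present at 10 of the 31 genes in damaged discs (32.3%), against 11.3% of the 10931 protein-coding genes in the same range of spans, and at 0 of 31 in undamaged discs, against 0.961%. The spans differ, however, with a median of 14.2 kb for the 31 genes and 2.88 kb for the 10931. Among the 2309 genes of the narrower range above, with a median span of 16.3 kb, the damaged share was 22.5%. Among septate junction genes 6 of 14 carried one, among apical genes 3 of 7, among adherens junction genes 1 of 8 and among basolateral genes 0 of 2. The opposite pattern in damaged discs was met at 2 of the 31 genes, nrv2 and sinu, against 1.72% of genes in that range of spans. Without Zelda-GFP damaged replicate 1 the tag-dependent count of genes was 16, where 1 tagged library sufficed for the call and 24.8% of all regions met it. The count fell to 5 where each peak was narrowed to a 100 bp summit window, and there 7.01% of all regions met the rule. Under these changed settings the counts are of genes but the shares are of regions, so they cannot be compared directly. Shares of genes are not given for them.

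Septate junction genes with such a region were nrv2, which encodes a subunit of the sodium pump, cora (Coracle), Lac (Lachesin), Gli (Gliotactin), bark (Bark beetle) and M6. The highest folds were at nrv2, 3.13 and 2.56 in damaged Zelda-GFP replicates 1 and 2 inside the gene (2L, 6793922 to 6794619), and 4.26 and 3.24 at a region 1990 bp outside it, at the limit of the window. At Gli the folds were 2.69 and 2.66, at bark 2.28 and 2.05, at Lac 1.87 and 2.36, at cora 1.79 and 2.20, and at M6 1.87 and 1.74. The bark region overlapped the neighbour Reph, and the M6 region also overlapped Glg1.

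The apical genes were sdt (Stardust, the scaffold that binds Crumbs), par-6 and Moe (Moesin, which links actin to the membrane). The sdt gene held a region (X, 8214061 to 8215996) with folds of 3.51 and 3.77 in damaged Zelda-GFP replicates 1 and 2, and a further one, 1411 bp outside the span and within slpr, had 2.13 and 1.90. The Moe region had folds of 3.27 and 3.12. At par-6 the region lay 28 bp outside the gene, within CG8188, with folds of 3.22 and 1.77. The adherens junction gene was pyd (Polychaetoid, the fly homologue of ZO proteins), with 5 tag-dependent regions along 104.8 kb and folds of 1.71 to 3.04. No tag-dependent region was found at the genes for alpha-catenin (alpha-Cat), p120 catenin (p120ctn), Canoe (cno) or N-cadherin (CadN), nor at baz or aPKC of the apical complex. These genes differed in their calls. No library called a region at alpha-Cat, whereas every library had a call at baz and at CadN. At aPKC and cno, 1 region each was called in both damaged and neither undamaged Zelda-GFP library, but also in wild type damaged replicate 2. The p120ctn region had no call in damaged Zelda-GFP discs.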

How the data were processed

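The study's 8 libraries are 2 replicates each of Zelda-GFP and wild type wing discs, damaged and undamaged. Per the submitters' processing notes, bcl2fastq 2.20, Bowtie2, SAMtools, Picard, deepTools and MACS2 were used with the build dm6; their settings, and whether a control library entered peak calling, are not given in the sources used here. Peak names in the deposited lists show that duplicates were marked. The deposited lists have the 10 narrowPeak columns: the authors' fold enrichment is a linear ratio of pileup to local expected coverage, and their other statistics are the −log10 p-value and −log10 q-value of each peak (lowest −log10 q 1.32). The deposited score is 10 times the −log10 q-value without decimals and was not analysed.

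Positions are 1-based on dm6, and gene spans come from the RefSeq Release 6 table, which gives neither strand nor exons. Of the 31 wider genes 30 matched by symbol and 1 (bark, listed as aka) by synonym. Pileup and expected coverage were solved from fold and p-value, taking the p-value as a Poisson upper tail and the fold as the ratio after adding 1 to each. Background coverage is the lowest expected coverage in a list; read depth is unknown. Folds were ranked only within lists. Merging, the call rules and the pileup recovery were tested on simulated lists (Python 3.11.15, pandas 2.3.3, scipy 1.17.1). Named were the 8 genes, wider genes with a tag-dependent region and, chosen after their values were seen, 7 wider genes without one. Members and lists were chosen with earlier results of these data known. Alternatives were stricter peak thresholds, other overlaps and flanks, lists of equal length and leaving out libraries. A planned motif search was not made, since no sequence was used here.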

Additional observations from a re-analysis of the deposited data

How the results depend on the processing

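No paired analysis was possible because the counts are described without a test, and the labels do not tie a replicate number to a shared animal, batch or day. Tag-dependent damaged regions at the 8 genes numbered 7 of 17, where 13.4% of all regions met the rule. They were 4 of 13 with no flank, which removes regions outside the spans by construction. With lists of equal length (1698 peaks each) they were 4 of 11, where shg kept 2, and ed and scrib 1 each. Leaving out single libraries gave 7 to 9, but dropping a library that enters a rule loosens it. The count was 9 without Zelda-GFP damaged replicate 1, where 24.8% of all regions met the rule. It was also 9 without Zelda-GFP damaged replicate 2 (22.3%) and without wild type damaged replicate 2 (18.7%). The undamaged count of 0 became 1 with a fold of at least 2, and 1 where peaks had to cover 50% of a region (both at scrib). It was also 1, at Fas3, without Zelda-GFP undamaged replicate 2, where 1 tagged library sufficed for the call. Leaving out wild type damaged replicate 1 as well, a pair chosen after seeing the data, gave the same 1. That library does not enter the undamaged rule. Without single libraries the undamaged count was 0 to 1. Damage-dependent regions fell to 2 with no flank and were 5 to 7 without single libraries. All 8 libraries enter that rule, and the shares of all regions without single libraries are not given. The 17 regions became 32 with 100 bp summit windows, which split broad regions, and 11 with lists of equal length; without single libraries they were 15 to 17. The wider list's 10 genes became 5 with summit windows, and 10 to 16 without single libraries. The median fold percentile of member peaks in the damaged Zelda-GFP lists, 59.1, was 74.2 with a fold of at least 2 and 78.4 with lists of equal length, both of which remove weak peaks, and 57.0 to 61.3 without single libraries. At crb the tag-dependent region was lost with a fold of at least 2, with 50% cover and with lists of equal length. The other causes were not tested. With 2 libraries per group and no read totals, a missing call cannot be told from a signal just under the caller's threshold.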

Other observations

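Among the 13922 protein-coding genes, 6 others had the same number of called regions as shg in each of the 8 libraries: 2 in both damaged Zelda-GFP libraries, 1 in wild type undamaged replicate 2 and 0 elsewhere. The 3 nearest to shg in the mean percentile of their leading peak over the damaged Zelda-GFP lists were spi, which encodes the EGF-like ligand Spitz, with leading folds of 3.48 and 3.16 in replicates 1 and 2, Ppa with 3.34 and 3.20, and Gnf1 with 3.15 and 2.97. Their mean percentiles were 89.2, 88.9 and 85.4, against 99.5 for shg, so none matched it in strength.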
